A study of Mus musculus with 9 samples.

Results

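Binding of RelA and RelB near the interleukin and interleukin receptor genes was examined in *Nfkb2*-/- MEFs, an immortalized line of mouse embryonic fibroblasts without p100, the precursor of p52. Chromatin was taken before stimulation (0 h) or after 6 h of continuous treatment with TNF at 10 ng/ml (TNFc), and RelA or RelB was immunoprecipitated from it, giving 2 ChIP-seq libraries per antibody and time. All groups share the *Nfkb2* deletion, and no wild-type cells were part of these libraries. The labels do not say whether the libraries of a group came from separate cultures, so each p-value measures only the spread between these libraries. The genes were chosen by name. Of 21418 protein-coding genes on the autosomes of mm9, 78 had a symbol made of Il and a digit, with *Il6* and *Il11* left aside, and 5 further matches on the X chromosome were not used. The authors called peaks library by library against *Nfkb2*-/- input, and a peak was counted for a gene when its centre lay within 50 kb of the gene's start site. The data are positions and strengths of binding, and the expression of these genes was not measured here.

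Interleukins are secreted proteins by which immune and stromal cells signal to each other, and their receptors are built from chains that are often shared between several ligands. RelA and RelB are DNA-binding subunits of NF-κB with a transactivation domain, as is cRel. Both bind κB sites as dimers with p50 or p52, and p100 normally holds part of them in the cytoplasm. TNF activates RelA through the canonical pathway, and several interleukin genes are well known targets of it. Fibroblasts are a source of stromal cytokines such as IL-7, IL-15 and IL-34, whereas many other members of the family are made mainly by lymphoid or myeloid cells.

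The sequences under 8 strong sites that hold a match to the κB consensus are shown first, because the results below refer to them. The sites of *Il2* and *Il2rb*, with means of 3.74 and 3.58, were stronger than the last 2 of these but held no match in the window and are not shown. Each is from the plus strand of mm9, 5′ to 3′, with matches to the κB consensus in capitals. For the sites of *Il34*, *Il18bp* and *Il4i1* the whole window of 201 bases around the site centre is given. The window touched an annotated untranslated region for the other 5, so only 30 bases around a match are given. The windows are chr8:113318509-113318709 for *Il34*, chr7:109120324-109120524 for *Il18bp* and chr7:52092383-52092583 for *Il4i1*. The 30-base stretches are chr16:91407156-91407185 for *Il10rb*, chr7:90923267-90923296 for *Il16*, chr3:7612603-7612632 for *Il7*, chr8:84926710-84926739 for *Il15* and chr10:127740428-127740457 for *Il23a*.
Il34: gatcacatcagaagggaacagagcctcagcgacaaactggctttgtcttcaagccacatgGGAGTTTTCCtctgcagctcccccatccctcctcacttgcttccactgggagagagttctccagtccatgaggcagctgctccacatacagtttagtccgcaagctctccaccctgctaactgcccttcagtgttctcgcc
Il18bp: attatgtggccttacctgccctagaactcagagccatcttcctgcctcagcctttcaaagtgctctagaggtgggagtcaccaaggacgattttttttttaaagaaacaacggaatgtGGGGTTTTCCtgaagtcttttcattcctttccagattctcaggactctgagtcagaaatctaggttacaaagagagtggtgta
Il10rb: ctgagctctcGGGATTCCCCaactggttct
Il16: tttggaagctGGAAAGTCCCacgtaatttg
Il7: agcctggatcGGAAACTCCCagacttactg
Il15: cgaatcagctGGGGTTTCCCCggtttcccc
Il23a: tagggaaactGGAATTTCCCgcggagctga
Il4i1: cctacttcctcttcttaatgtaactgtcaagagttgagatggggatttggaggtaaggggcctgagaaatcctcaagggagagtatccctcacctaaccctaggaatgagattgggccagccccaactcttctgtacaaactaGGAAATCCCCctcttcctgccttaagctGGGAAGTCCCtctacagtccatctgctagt
The *Il15* stretch holds a pair of overlapping matches shifted by a single base, and the third match lay further along the same window. The *Il4i1* window holds a pair of separate matches. At *Il7* and *Il16* the match lay outside the interval that the peaks themselves covered.

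After 6 h of TNFc, RelA and RelB occupied chromatin near a subset of these genes, with *Il34* carrying the most sites shared by all 4 libraries. A gene was called bound by an antibody when peaks of both of its libraries overlapped by at least 1 bp and the merged peak was centred within 50 kb of the start site. By this rule RelA bound 24 of the 78 genes (30.8%), against 13.9% of all autosomal protein-coding genes. RelB bound 19 (24.4%), against 14.6% of all genes. Both antibodies were called at 14 genes (17.9%, against 9.51% of all genes), RelA without RelB at 10 (12.8%, against 4.4%) and RelB without RelA at 5 (6.41%, against 5.12%). A further 16 genes had peaks in single libraries that did not meet the rule, and 33 had no peak in any of the 4 libraries at 6 h. At least 1 peak of any library was thus found near 45 genes (57.7%), against 45.1% of all genes. The interleukin genes stood above the background for the other calls at 6 h, while for RelB without RelA their share was close to that of all genes. These shares are descriptions since neighbouring genes share sites.

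**Figure D1:**
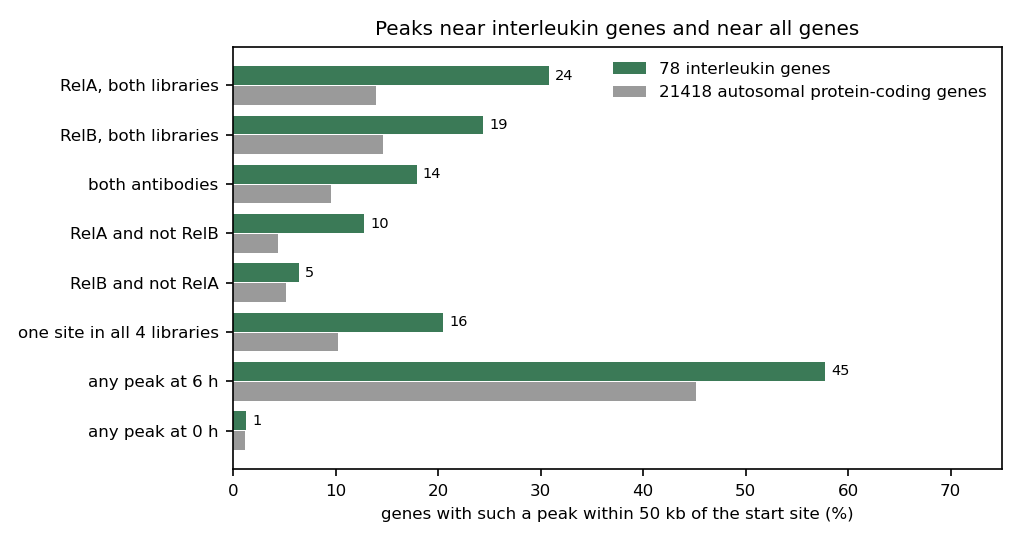
The horizontal bars, which start at 0, give the percentage of the 78 interleukin genes (green, with the number of genes) and of 21418 autosomal protein-coding genes (grey) that had a peak of each kind within 50 kb of the start site. The green bar was the longer one in each of the 7 rows for 6 h, and both bars were near 1% at 0 h.

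Before stimulation almost nothing was called near these genes. The RelA libraries had 0 and 0 distinct peaks near them at 0 h, and the RelB libraries 0 and 1. At 6 h the RelA libraries had 62 and 50, and the RelB libraries 53 and 63, so no 0 h library came near a 6 h library. The mean difference between the times was 56.75 peaks per library (57 ± 6.48 at 6 h against 0.25 ± 0.50 at 0 h, SD, n = 4 each; two-sided exact permutation test, p = 0.0286, which is the lowest value possible with 4 against 4). Each group of 4 held 2 RelA and 2 RelB libraries, and the test shuffled them without regard to antibody. Within an antibody the times are 2 against 2, where such a test cannot go below 0.333. Whole lists grew as well, from between 14 and 194 peaks at 0 h to between 5192 and 7052 at 6 h, and peaks near interleukin genes made up between 0.884% and 1.03% of the autosomal peaks in each 6 h library. At 6 h the RelA libraries averaged 56 peaks near these genes and the RelB libraries 58, a difference of -2 (two-sided exact permutation test, p = 0.667, where 2 against 2 cannot go below 0.333). The number of peaks near these genes therefore did not separate the antibodies.

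**Figure D2:**
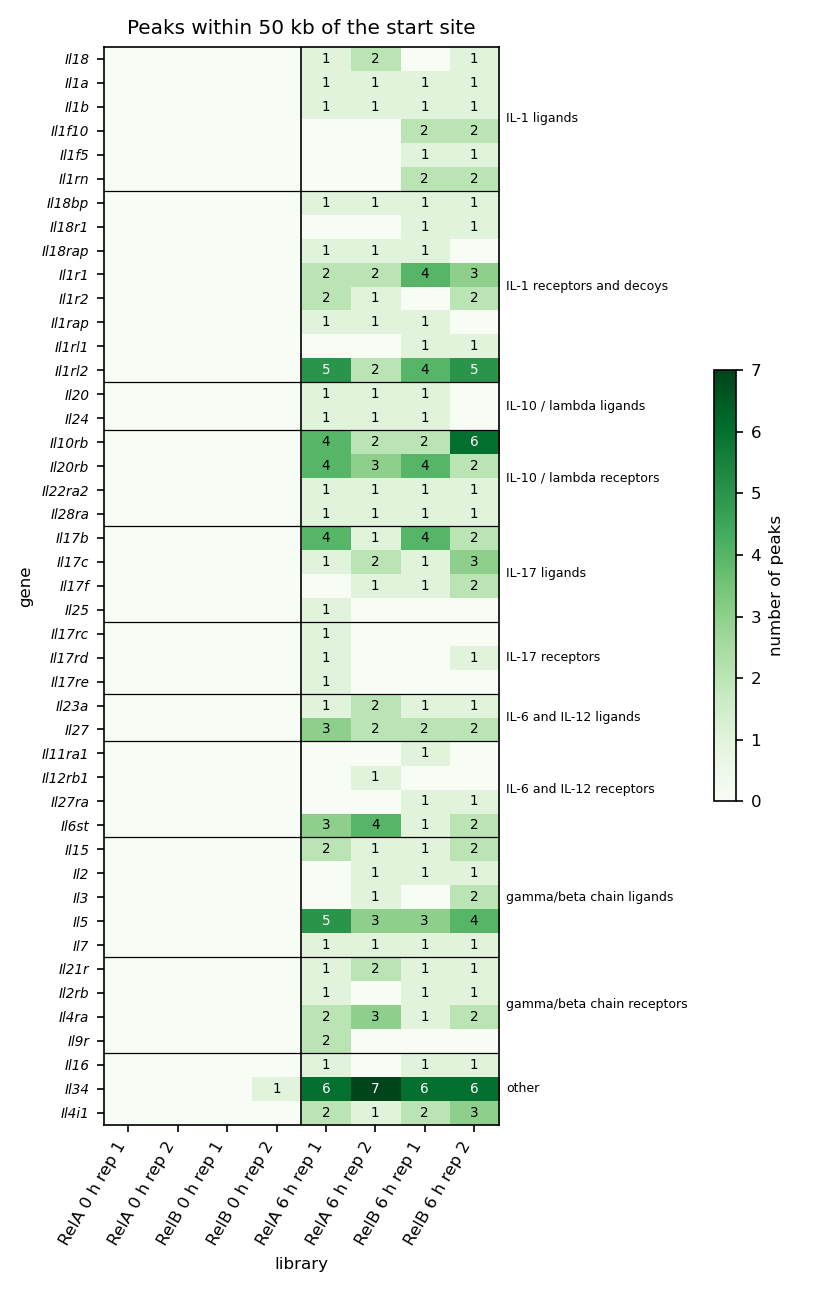
Each row is one of the 45 genes with a peak at 6 h, grouped by family, and each column is a library. The colour and the printed digit give the number of peaks within 50 kb of the start site, and blank cells are 0. The 4 columns for 0 h are blank except for a single peak at Il34 in RelB replicate 2, while Il34 had between 6 and 7 peaks in every library at 6 h.

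The single 0 h peak lay in an intron of *Il34*, which encodes a ligand of the CSF-1 receptor that supports macrophages and osteoclasts. It was called in RelB replicate 2 at chr8:113318599-113318823, 11113 bp inside the gene from its start site, with a log2 fold over input of 2.96, an FDR of 0.0158 and 15 ChIP reads against 2 input reads. It ranked 5 of the 14 peaks in that list and overlapped the strongest *Il34* site at 6 h. The other 0 h RelB library had no peak there, so the basal call was not repeated. Over all genes, 1.19% had a peak of any 0 h library within 50 kb, and 1 of 78 interleukin genes is a share of 1.28%.

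At 6 h *Il34* had 5 sites where every one of the 4 libraries had a peak, and 16 of the 78 genes (20.5%, against 10.2% of all genes) had at least 1 such site. Here a site is the interval covered by peaks of the 4 libraries that overlap each other in a chain. The strongest, at chr8:113318532-113318686, lay in an intron 11215 bp into the gene. The RelA libraries gave log2 folds of 4.0 and 4.17 here, the RelB libraries 4.91 and 4.46, so both RelB values were above both RelA values. With library medians centred, RelA minus RelB was -0.52 ± 0.29 (SE; limma adjusted p = 0.396). It ranked 70 of the 1860 sites that were called in all 4 libraries across the genome. A second intronic site at chr8:113316699-113317667 had 3.79 and 3.61 with RelA, 3.29 and 4.68 with RelB, so the RelB libraries lay on either side of RelA. The remaining 3 sites lay 2888 bp and 4108 bp upstream of the start site and 2657 bp inside the gene, with mean log2 folds of 3.48, 2.56 and 2.00. The last of these ranked 1855 of 1860, so the gene held both one of the strongest and one of the weakest shared sites in the genome.

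**Figure D3:**
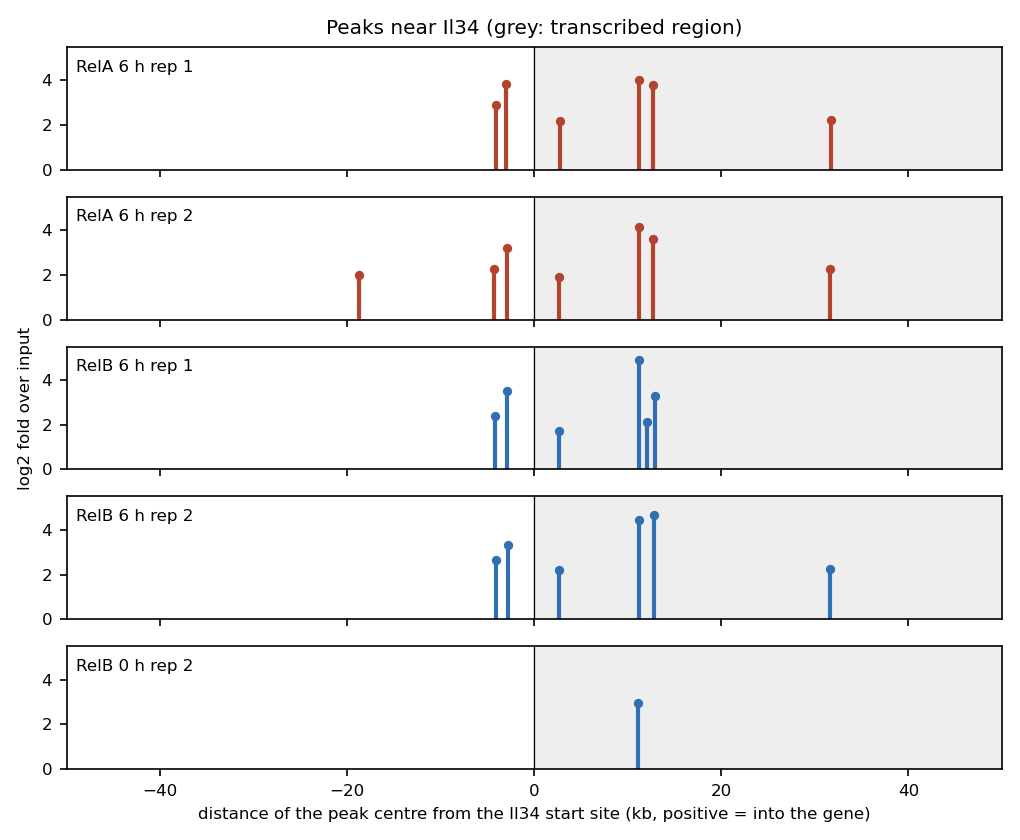
Each panel is a library and shows the log2 fold over input (vertical axis) of every peak within 50 kb of the Il34 start site, by distance of the peak centre in kb (horizontal axis, positive into the gene, grey for the transcribed region). A pair of peaks just upstream of the start site and 3 in the first part of the gene recur in all 4 libraries at 6 h, and the lowest panel shows the only 0 h peak, in RelB replicate 2, at the position of the strongest 6 h site.

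Among the 37 ligands, RelA bound 10 (27%, against 13.9% of all genes), RelB 8 (21.6%, against 14.6%) and both antibodies 6 (16.2%, against 9.51%). *Il15*, which encodes a growth factor of natural killer and memory T cells, was called at its promoter. Its site at chr8:84926612-84926833, in the untranslated region 398 bp past the start, had log2 folds of 4.26 and 4.12 with RelA, 3.39 and 3.21 with RelB, without overlap between the antibodies. RelA minus RelB was 0.98 ± 0.27 (SE; limma adjusted p = 0.108), the largest difference in favour of RelA among the interleukin sites. Because the peaks of the replicates touched only through those of the other antibody, *Il15* did not meet the rule for a bound gene. *Il7*, which encodes the growth factor of developing lymphocytes, had an intronic site 1189 bp into the gene at chr3:7612510-7612556. Its log2 folds were 3.91 and 3.70 with RelA, 3.81 and 4.0 with RelB, so the antibodies overlapped there.

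The IL-1 ligands *Il1a* and *Il1b*, the main inflammatory members of the family, shared a single intergenic site between them. The site at chr2:129156469-129156771 had log2 folds of 3.10 and 3.01 with RelA, 3.19 and 3.10 with RelB. It lay 20912 bp upstream of *Il1a* and 40255 bp downstream of the start of *Il1b*, and no other peak was called within 50 kb of either gene. *Il18*, the ligand processed by caspase-1, had a site in both RelA libraries (2.56 and 2.75) and in RelB replicate 2 (2.46), 15715 bp past its start and nearer to the start of *Sdhd*. *Il33* and the IL-36 ligands *Il1f6*, *Il1f8* and *Il1f9* had no peak at all. *Il1rn*, the gene for the IL-1 receptor antagonist, had neither a call for an antibody nor a site in 4 libraries and is described because of values already seen. It had a peak in each RelB library just upstream of its start site, at -1227 bp with a log2 fold of 2.91 and at -1306 bp with 2.90, and neither RelA library had one. These narrow peaks did not overlap, so the gene was not called bound.

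*Il23a* and *Il27*, which encode the p19 subunit of IL-23 and the p28 subunit of IL-27, were bound by both antibodies, and the other ligands of the IL-6 and IL-12 families (*Il12a*, *Il12b* and *Il31*) had no peak within 50 kb. The *Il23a* site lay 5292 bp upstream at chr10:127740224-127740641, but only 42 bp from the start of *Pan2*, a deadenylase subunit gene. Its log2 folds were 4.32 and 3.58 with RelA, 3.58 and 2.56 with RelB, a difference of 0.96 ± 0.38 (SE; limma adjusted p = 0.24). The stronger *Il27* site, at chr7:133709038-133709608, lay in an intron of *Eif3c*, a translation initiation factor gene, 557 bp from the start of that gene. It had 2.36 and 3.06 with RelA, 4.12 and 4.30 with RelB, with no overlap. RelA minus RelB was -1.42 ± 0.31 (SE; limma adjusted p = 0.0638), the largest difference in favour of RelB near these genes. It passed the threshold without RelA replicate 2 (adjusted p = 0.0132) and ranged up to 0.435 without RelB replicate 2. A second *Il27* site, 1123 bp from the start of the stress gene *Nupr1*, had 3.15 and 2.48 with RelA, 3.36 and 3.24 with RelB.

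*Il5*, the eosinophil growth factor, was bound by both antibodies only through sites at the far end of the 50 kb range, next to the transcription factor gene *Irf1*. At 49578 bp from the *Il5* start but 358 bp from that of *Irf1*, the log2 folds were 3.36 and 3.17 with RelA, 3.12 and 2.65 with RelB. A site 42433 bp away had 2.98 and 2.83 with RelA, 3.12 and 2.78 with RelB. The first of these was the shared site closest to the 50 kb limit from inside. The nearest one just outside it lay 57342 bp from the start of *Il12rb1*, a chain of the IL-12 and IL-23 receptors, with 3.94 and 4.0 with RelA, 3.62 and 3.69 with RelB. The neighbouring type 2 cytokine genes *Il4* and *Il13* had no peak within 50 kb, and neither did *Il9* or *Il21*. The ligands without a peak also included *Il10*, *Il19*, *Il22*, *Il28a* and *Il28b* of the IL-10 and lambda interferon family and *Il17a* and *Il17d* of the IL-17 family.

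Of the 38 receptor and decoy genes, RelA bound 12 (31.6%, against 13.9% of all genes), RelB 8 (21.1%, against 14.6%) and both antibodies 6 (15.8%, against 9.51%). *Il10rb*, the chain shared by the receptors for IL-10, IL-22 and the lambda interferons, had a site 695 bp past its start in an annotated untranslated region at chr16:91406935-91407273. Its log2 folds were 4.09 and 3.91 with RelA, 4.25 and 4.17 with RelB, and it ranked 164 of 1860. RelB was the higher in both libraries, but the centred difference of -0.13 was smaller than its standard error of 0.27. A weaker intergenic site nearer to *Ifnar2*, the gene of an interferon receptor chain, had 2.98 and 3.49 with RelA, 2.80 and 2.65 with RelB. *Il18bp*, the soluble inhibitor of IL-18, was assigned a site in an intron of *Numa1* at chr7:109120355-109120493, 46245 bp past the *Il18bp* start. It had 4.32 and 4.46 with RelA, 4.0 and 4.25 with RelB, so both RelA values were the higher, and it ranked 100 of 1860.

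*Il22ra2*, which encodes the soluble IL-22 binding protein, had a site in an intron of the interferon-γ receptor gene *Ifngr1* at chr10:19311821-19312252. It lay 282 bp from the start of *Ifngr1* and 29768 bp upstream of *Il22ra2*. The log2 folds were 2.56 and 2.58 with RelA, 3.91 and 4.0 with RelB, so the replicates of each antibody were close and the antibodies did not overlap. RelA minus RelB was -1.30 ± 0.26 (SE; limma adjusted p = 0.051), the smallest adjusted p near these genes. With only peaks of an FDR below 0.01 it was 0.0191, and without RelB replicate 2 it was 0.435. *Il1rl2*, the IL-36 receptor, had a site 35194 bp into the gene with 3.31 and 3.81 with RelA, 3.01 and 3.67 with RelB. *Il20rb*, a chain of the receptors for IL-19, IL-20 and IL-24, was assigned a site in an intron of *Nck1* with 2.98 and 2.83 with RelA, 3.56 and 3.56 with RelB. A weaker site 1840 bp upstream of its own start had 2.68 and 2.62 for RelA and 2.80 in RelB replicate 1. *Il6st*, the signalling chain gp130 used by most of the IL-6 family, had an intergenic site 10646 bp upstream. It had 3.70 and 2.33 with RelA, 2.86 and 2.88 with RelB, where the RelA libraries lay on either side of RelB.

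Other receptors had no peak within 50 kb in any library: *Il10ra*, *Il20ra* and *Il22ra1* of the IL-10 family, *Il17ra* and *Il17rb* of the IL-17 family, *Il6ra*, *Il11ra2*, *Il12rb2*, *Il23r* and *Il31ra* of the IL-6 and IL-12 families, and *Il2ra*, *Il3ra*, *Il5ra*, *Il7r* and *Il15ra*. The 8 receptor and decoy genes of the IL-1 family all had at least 1 peak at 6 h, against 45.1% of all genes, but neighbours shared peaks. *Il1rl1* and *Il18r1* rested on the same pair of single-library RelB peaks. None of the 5 IL-17 receptor genes was bound by the rule, where RelA bound 13.9% of all genes and RelB 14.6%. At such shares a count of 0 among 5 does not set these genes apart. A peak of any 6 h library lay near 3 of the 5 (60%, against 45.1% of all genes). The 16 genes with peaks but no call were *Il1rn*, *Il1f5*, *Il1f10*, *Il18r1*, *Il1rl1*, *Il3*, *Il15*, *Il17c*, *Il25*, *Il9r*, *Il11ra1*, *Il12rb1*, *Il27ra*, *Il17rc*, *Il17rd* and *Il17re*. Since total reads per library are unknown, the absence of a peak says that none was called, not that the factor was absent.

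**Figure D4:**
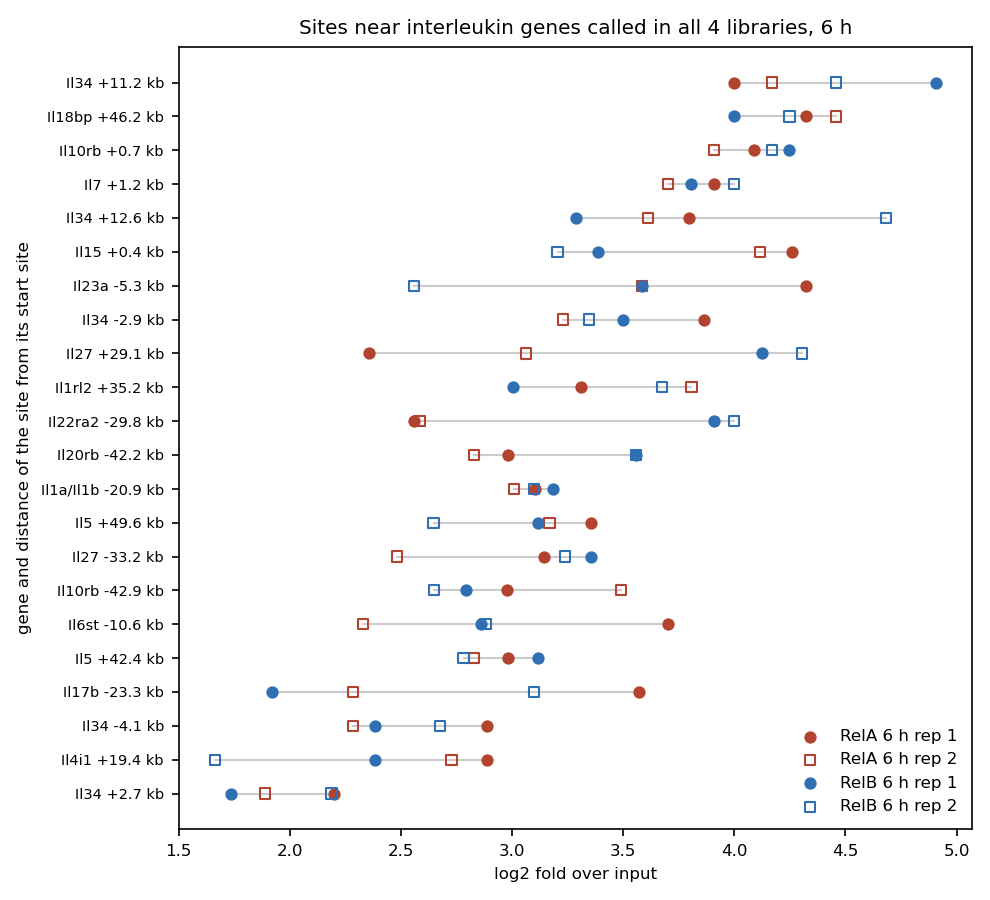
Each row is one of the 22 sites near interleukin genes shared by the 4 libraries of the 6 h time point, named by gene and by distance from its start site in kb, and the points give the log2 fold over input in each library (red RelA, blue RelB, filled replicate 1, open replicate 2). The rows run from the highest mean, Il34 at 4.38, to the lowest, an Il34 site at 2.00. Red and blue points are furthest apart at the upper Il27 site and at Il22ra2, where blue is higher, and at Il15, where red is higher.

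At the genes called for only 1 antibody, most of the sites behind the call also had a peak in a library of the other antibody. Peaks of single libraries elsewhere near these genes are not counted here. The 10 genes bound by RelA and not by RelB were the ligands *Il18*, *Il20*, *Il24* and *Il17b* and the receptors *Il18rap*, *Il1r2*, *Il1rap*, *Il28ra*, *Il21r* and *Il4ra*. In 9 of them the site was called in both RelA libraries and in 1 RelB library. At *Il17b* all 4 libraries formed a site upstream of the gene, with 3.57 and 2.28 with RelA, 1.92 and 3.10 with RelB, but the RelB peaks did not overlap each other. Among the 112 distinct sites near interleukin genes, 0 had both RelA libraries and no RelB library, against 2.64% of all autosomal sites. Both RelA libraries and 1 RelB library were found at 10 (8.93%, against 3.11%). Both RelB libraries and 1 RelA library were found at 8 (7.14%, against 5.07%). Over all autosomal sites too, 1 library of the other antibody was more frequent than none, with 456 against 387 sites for RelA and 743 against 563 for RelB.

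*Il1r2*, the decoy receptor for IL-1, had 3.10 and 3.17 for RelA and 2.56 in RelB replicate 2, in its own intron. *Il1rap*, the accessory chain of the IL-1 receptors, had 2.89 and 3.09 for RelA and 2.68 in RelB replicate 1, 46132 bp into the gene. *Il18rap*, the accessory chain of the IL-18 receptor, had 2.30 and 2.48 for RelA and 1.92 in RelB replicate 1. These are all intronic sites of the gene itself. *Il20* and *Il24* shared a site in an intron of *Faim3* with 2.57 and 2.62 for RelA and 2.38 in RelB replicate 1. *Il21r* and *Il4ra*, the specific chains for IL-21 and IL-4, likewise shared an intergenic site with 2.90 and 2.28 for RelA and 2.46 in RelB replicate 2. Beside it, without overlap, a site at chr7:132724839-132725224 had 2.62 in RelA replicate 2 and 2.13 in RelB replicate 1. Counting centres within 500 bp as overlap did not add either gene to those bound by RelB. *Il4ra* also had a site 98 bp past its start in RelA replicate 1 and RelB replicate 2. RelA replicate 2 had a peak at 300 bp. *Il28ra*, the specific chain of the lambda interferon receptor, had 2.36 and 3.01 for RelA and a higher value, 3.43, in RelB replicate 2, and RelB replicate 1 had a peak of 3.35 beside the site that did not overlap it. With centres within 500 bp counted as overlap, *Il28ra* was bound by both antibodies.

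The 5 genes bound by RelB and not by RelA were *Il16*, *Il2*, *Il2rb*, *Il17f* and *Il1r1*. *Il16*, a chemoattractant of CD4+ cells, had a site at chr7:90923179-90923274, 28990 bp upstream, with 3.81 and 4.25 in the RelB libraries and no RelA peak. *Il2rb*, a chain of the IL-2 and IL-15 receptors, had 3.58 and 3.58 in the RelB libraries and no overlapping RelA peak, at a site in an intron of *Tmprss6*, 44776 bp from its start. RelA replicate 1 had a peak of its own in the same intron, 44452 bp from the start, with a log2 fold of 2.36. For *Il16* the nearest RelA peak was one of 2.09 in replicate 1, 32261 bp upstream of the gene. *Il2*, the T cell growth factor, had an intergenic site 20732 bp upstream with 3.70 and 3.70 for RelB and 3.81 in RelA replicate 2, so where RelA was called it was no weaker. *Il17f* had 2.68 and 3.06 for RelB and 2.39 in RelA replicate 2 at a site 17630 bp upstream. *Il1r1*, the signalling receptor for IL-1, had a site 2983 bp upstream with 2.80 and 2.78 for RelB and 2.24 in RelA replicate 1, and an intronic one with 1.92 and 2.78 for RelB and no RelA peak. Another site in an intron of *Il1r1* had 2.68 and 2.73 for RelA and 2.74 in RelB replicate 2. It lay past the 50 kb limit and was counted for *Il1rl2* only. With the start sites of every transcript, or at 100 kb, *Il1r1* was bound by RelA as well. Sites with both RelB libraries and no RelA library numbered 5 of the 112 (4.46%, against 3.84% of all autosomal sites).

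*Il4i1*, which encodes a secreted amino acid oxidase, was bound by both antibodies within its own introns. The site in all 4 libraries, 19352 bp into the gene, had 2.89 and 2.73 with RelA, 2.38 and 1.66 with RelB. A stronger one, 20743 bp into the gene, had 3.29 and 3.31 for RelB and 3.86 in RelA replicate 1.

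Strength at shared sites was then compared between the antibodies over all 1860 sites called in the 4 libraries. Near interleukin genes 22 such sites lay, with a median mean log2 fold of 3.25, against 3.19 over all of them. The limma test called 0 of these 22 at an adjusted p under 0.05, against 11 of all 1860 (0.591%). Counting only peaks with an FDR below 0.01 gave 2 calls near interleukin genes, *Il22ra2* (limma adjusted p = 0.0191) and *Il15* (0.0482). With replicate number as a block in the fit, 2 of the 22 were called, *Il22ra2* and *Il27*, and 85 of all 1860. At an unadjusted p under 0.05 there were 5 of 22, against 313 of 1860 (16.8%). The median of RelA minus RelB, centred by library, was 0.15 at the interleukin sites and -0.0083 over all sites, and 13 of 22 sites were above 0. The difference between the 2 replicates had a standard deviation over the 22 interleukin sites of 0.51 for RelA and 0.55 for RelB. A shift of the whole group was not tested, and the sign of the median changed when RelA replicate 1 was left out (-0.085).

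**Figure D5:**
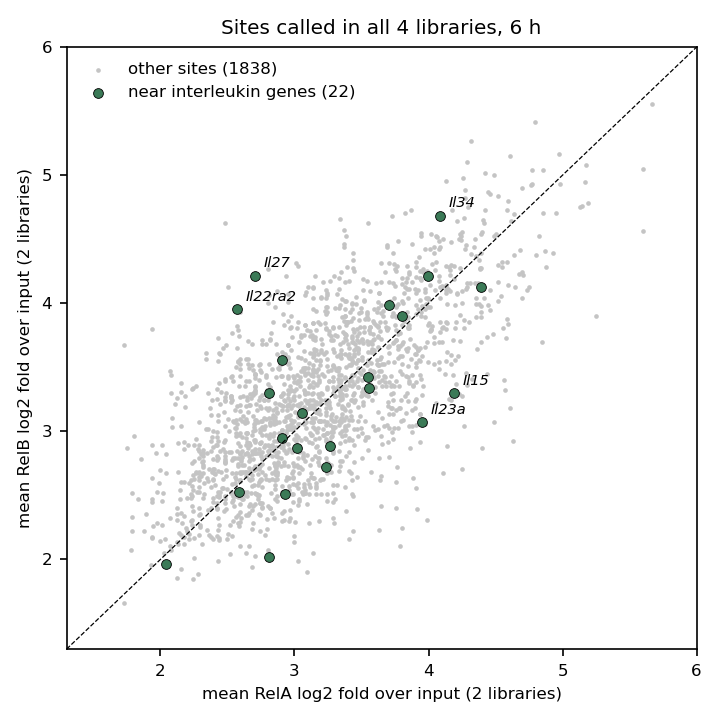
Each point is one of the 1860 sites called in all 4 libraries at 6 h, with the mean log2 fold over input of the 2 RelA libraries on the horizontal axis and of the 2 RelB libraries on the vertical axis, and the dashed line marks equal values. The 22 sites near interleukin genes (green) spread around the line among the other sites (grey), with Il27 and Il22ra2 on the RelB side and Il15 and Il23a on the RelA side.

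Position within the locus varied. Of the 22 shared sites, 11 lay in introns, 7 between genes, 3 in untranslated regions and 1 in a non-coding gene. Counted as 23 pairs of a site and a gene, 2 lay within 1 kb of the start site (*Il10rb* and *Il15*), 5 at 1 to 10 kb and 16 further away. In 12 of the 23 pairs the interleukin gene had the nearest start site, and this held for 8 of the 16 genes. For *Il22ra2*, *Il23a*, *Il27* and *Il5* a site lay within 1 kb of the start of another gene (*Ifngr1*, *Pan2*, *Eif3c* and *Irf1*). The shared sites of *Il18bp*, *Il20rb*, *Il4i1* and *Il1b* lay over 10 kb from any start site. An assignment by distance alone therefore does not tell which gene a site serves.

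A match to the κB consensus lay within 100 bp of the centre of 17 of the 22 shared sites (77.3%, Wilson 95% interval 56.6% to 89.9%, counting error only), against 73.8% of all autosomal sites in 4 libraries. In windows of the same length 1000 bp to either side, the share was 4.55% for the interleukin sites and 12.5% for all sites. Of the 5 sites without a match in the window, 4 held one elsewhere in the merged interval, and the exception was the *Il34* site 2888 bp upstream. These intervals were 303 to 1382 bp long, against 201 bases for the window, and no share was computed for flanking stretches of such length. The share was 60.7% near interleukin genes and 62.2% overall for sites called in 2 or 3 libraries, and 29% and 33.6% for sites called in a single library. It was thus higher the more libraries called a site, near interleukin genes and over all sites.

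The promoters themselves, from 250 bp before to 50 bp after the start site, held a κB match in 26 of the 78 genes (33.3%), against 28% of all genes. Among the 29 genes with a reproducible peak, 6 (20.7%) had one, and among the 33 genes with no peak, 15 (45.5%). The latter include *Il10*, *Il2ra*, *Il19* and *Il23r*. A match in the promoter was therefore not the more frequent feature among the bound genes, and the difference was not tested.

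The downstream machinery was described with a list of 27 genes for receptor kinases, adaptors, IL-1 processing, feedback inhibitors and related cytokines. RelA bound 9 of them (33.3%, against 13.9% of all genes), RelB 8 (29.6%, against 14.6%) and both 4 (14.8%, against 9.51%). A peak of any 6 h library lay near 21 (77.8%, against 45.1%) and one of a 0 h library near 0. *Casp1*, the protease that matures IL-1β and IL-18, had a shared site with 4.45 and 4.32 with RelA, 4.24 and 4.30 with RelB, 10265 bp past its start. Its mean of 4.33 was close to the 4.38 of the strongest *Il34* site. *Tyk2*, a kinase bound to several of these receptors, had sites with mean log2 folds of 4.17 and 3.62, and *Irak2*, a kinase of the IL-1 receptor pathway, had one with 3.75. The inflammasome sensor gene *Nlrp3*, the kinase gene *Map3k7* and the cytokine gene *Tslp* had shared sites with means of 2.84, 2.83 and 2.79. That of *Map3k7* lay 66 bp from its start.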

How the data were processed

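Chromatin from *Nfkb2*-/- MEFs at 0 h and 6 h of TNFc was precipitated with antibodies to RelA or RelB, in 2 libraries per group. The authors trimmed reads with cutadapt, aligned them uniquely to mm9 with Bowtie and called peaks per library against *Nfkb2*-/- input with cisGenome. The deposited lists give each peak's FDR (a q-value) and its log2 fold over scaled input, computed by the authors for the strongest window. The deposited count columns give ChIP and input reads per peak without normalization. The lists held 25055 peaks and between 120352 and 162105 ChIP reads in peaks per 6 h library. Total depth is unknown, so no detection limit could be given.

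Start sites came from the GENCODE annotation of mm9, with the outermost start of each gene. The members and gene lists were chosen with earlier results of these data known. Named genes were those with a site in all 4 libraries, a reproducible peak of 1 antibody only or a 0 h peak, with values at the strongest site called in both libraries of an antibody or in all 4. Strength was tested with limma on log2 folds centred on library medians at 1860 sites, with Benjamini-Hochberg adjustment and no block for replicate number, since same-numbered libraries did not deviate together (r = -0.00256). The κB consensus was searched on both strands in mm9. Steps were tested on simulated data. Alternatives covered distance, FDR, overlap rule, list size, transcript starts, normalization, replicate block, window size and leaving out libraries. Python 3.11.15, numpy 2.4.6, pandas 2.3.3, pysam 0.24.0, samtools 1.23.1, R 4.3.3 and limma 3.58.1 were used.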

Additional observations from a re-analysis of the deposited data

How the results depend on the processing

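Of 66 values computed under alternatives, 15 differed from the main setting. They moved a count by over 1.5 times, gained limma calls where the main setting had 0, or lost a p under 0.05. The median of RelA minus RelB changed sign in 1 more. Distance mattered most: at 20 kb RelA bound 10 genes, RelB 9 and both 6, with 11 shared sites, and at 100 kb RelA bound 37, RelB 29 and both 22. Shares of all genes were computed only for the main setting. The counts under alternatives therefore do not show whether the excess over all genes held. All genes bound at 20 kb were among those bound at 50 kb, which the rule fixes because only the distance was narrowed. With an FDR below 0.01, 5 RelA genes (*Il1r2*, *Il20*, *Il21r*, *Il24*, *Il4ra*) and 2 RelB genes (*Il17f*, *Il23a*) were lost. With centres within 500 bp counted as overlap, RelB gained 7 genes, *Il1rn* and *Il15* among them.

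Leaving out 1 library, which then lets the other stand alone for its antibody, gave 24 to 34 RelA genes, 19 to 36 RelB genes, 17 to 22 genes bound by both and 22 to 27 shared sites. RelB genes numbered 35 without replicate 1 and 36 without replicate 2, because a single RelB library needs no partner. The 6 h minus 0 h difference was 56 to 57.5 peaks when a replicate number was left out, where the smallest exact permutation p is 0.333.

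The RelA against RelB test called 2 of the interleukin sites in the fit with a replicate block (*Il22ra2*, limma adjusted p = 0.00898, and *Il27*, 0.0045, of 85 genome-wide), and 2 at an FDR below 0.01 (*Il15* and *Il22ra2*). Leaving out 1 library gave 0 to 1 called sites, the 1 being *Il27* without RelA replicate 2. The median difference ran from -0.085 without RelA replicate 1, where 9 of 22 sites were above 0, to 0.15. Same-numbered libraries did not deviate together (r = -0.00256), but the labels do not say whether they were prepared as pairs. The design therefore does not decide between the fits with and without the block. The cause of these changes was not tested. The share of shared sites with a κB match was 63.6% within 50 bp and 86.4% within 200 bp of the centre.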
